A study of Mus musculus with 6 samples.

Results

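The matrix metalloproteinases (MMPs) Mmp2, Mmp3, Mmp8, Mmp9, Mmp13, Mmp14 and Mmp16 and their tissue inhibitors Timp1, Timp2 and Timp3 were followed through the cells of healing mouse fracture callus by single-cell RNA sequencing (scRNA-seq). The 10 genes were taken by symbol out of 52081 gene identifiers found in each of the 6 libraries. They were chosen by name and not by a threshold on a measured value, but earlier results of these data were known. MMPs are secreted or membrane-bound zinc enzymes that cut the collagens and proteoglycans of the extracellular matrix, and most are made as inactive proenzymes, so a transcript level is not an enzyme activity. In fracture repair, cartilage is laid down first and is then resorbed and replaced by bone. MMP13 and MMP9 are known for their part in that removal of cartilage, and TIMPs bind the active site of MMPs and block them.

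The calluses were taken 14 days post-fracture (dpf) from the femurs of mice that the study describes as male and 12 weeks old, and the labels speak of a callus from each mouse. The numbers of mice that the study gives for this experiment differ between its results and its methods, so whether each library is a single mouse is not known. There were 3 control libraries, given as wt in the labels and as Piezo1 f/f in the study, and 3 libraries labelled knockout, in which Col2CreERT, a tamoxifen-inducible Cre that the study writes as Col2CreERT2, was used to delete Piezo1, a mechanically gated ion channel. The latter are called knockouts 1 to 3 after their labels. Piezo3-/- is what their sample labels say, while the series design has Piezo1-/-. Both groups carried the fracture and received tamoxifen at 75 mg/kg on 5 days, starting 5 days after modelling. Col2CreERT acts in cells that express Col2a1, so Piezo1 is lost in that lineage at most, and a 3′ library counts a Piezo1 transcript with or without its floxed exons. Callus cells were released by enzyme digestion and captured on the 10x 3′ platform with a target of 5000 cells, and each unique molecular identifier (UMI) stands for 1 captured transcript.

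Before the MMPs and TIMPs were compared, the libraries were checked against their labels. After filtering, 41705 cells were kept, between 3068 and 10046 per library, with a median of 4822.5 to 9781 UMIs per cell, and the libraries held 57626530 to 103784364 UMIs before filtering. Levels are given as UMIs per 1000000 UMIs of the cells concerned (UPM). Piezo1 stood at 56.4 to 62.2 UPM in the controls and at 45.3 to 95.5 in the libraries labelled knockout, so the groups overlapped and the label could not be checked by this gene. Knockout 3 carried 577.6 UPM of Xist, the RNA of the inactive X chromosome, against at most 0.170 in the other 5 libraries, and no UMI of the Y-linked Ddx3y against 52.3 to 123.4 in the others, which goes against its description as male. Knockout 2 stood apart in its makeup, with 18 chondrocyte-like and 1301 osteoblast-like cells. Control 1 and knockout 1 also stood apart, with 39.7% and 39.0% of their cells in a chondrocyte-like class of few UMIs (median 777) against 1.06% to 5.93% in the other libraries, and 77.7% and 73.4% in stromal classes against 20.4% to 58.1%. Pairs of libraries shared 4 to 36 cell barcodes, at most 0.383% of the smaller library.

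The collagenases Mmp13 and Mmp8 and the stromelysin Mmp3 lie near each other in the MMP cluster of chromosome 9, and their levels led in 3 different cell classes. Mmp13 spans chr9:7272514-7283331, Mmp3 chr9:7445822-7455975 and Mmp8 chr9:7558456-7568485 on the plus strand of GRCm38, with 162.5 kb between the first pair and 102.5 kb between the second. The 250 bases before each RefSeq start are shown because the leading classes of these neighbours differed. Mmp3 and Mmp13 were not apart by class. Inflammatory stromal-like cells led Mmp3 with a median of 199 UPM and held Mmp13 at a median of 3103. They are given 5′ to 3′ on the plus strand of GRCm38.p6, at chr9:7272264-7272513 for Mmp13, chr9:7445572-7445821 for Mmp3 and chr9:7558179-7558428 for Mmp8, and capitals mark the motifs searched for.
Mmp13: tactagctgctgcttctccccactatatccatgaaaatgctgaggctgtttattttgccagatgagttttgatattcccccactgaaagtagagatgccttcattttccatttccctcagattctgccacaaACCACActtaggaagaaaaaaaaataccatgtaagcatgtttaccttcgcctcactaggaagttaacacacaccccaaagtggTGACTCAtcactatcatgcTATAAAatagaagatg
Mmp3: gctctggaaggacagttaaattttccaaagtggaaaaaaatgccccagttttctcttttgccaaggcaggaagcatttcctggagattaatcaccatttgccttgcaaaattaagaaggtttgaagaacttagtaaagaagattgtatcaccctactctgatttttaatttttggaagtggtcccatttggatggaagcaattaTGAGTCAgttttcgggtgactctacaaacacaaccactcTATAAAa
Mmp8: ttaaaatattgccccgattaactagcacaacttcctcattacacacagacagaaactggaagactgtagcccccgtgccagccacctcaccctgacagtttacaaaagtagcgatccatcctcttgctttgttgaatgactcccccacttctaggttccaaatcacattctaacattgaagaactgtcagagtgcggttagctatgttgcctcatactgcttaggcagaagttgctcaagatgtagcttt
The motifs were the AP-1 letters TGANTCA, the RUNX letters TGTGGT and the TATA letters TATAAA, searched on both strands and counted back from the RefSeq start. The Mmp13 window held an AP-1 match at 35 to 29 bases, a RUNX match on the minus strand at 118 to 113 bases and a TATA match at 16 to 11 bases before the start. The Mmp3 window held an AP-1 match at 46 to 40 bases and a TATA match at 7 to 2 bases, and the Mmp8 window held none of these letters. Across 32851 RefSeq windows of the same length, 6.75% held the AP-1 letters, 14% the RUNX letters and 12.4% the TATA letters. Of the 7 members with a RefSeq window, which are these 3, Mmp14 and the TIMPs, Mmp14 held a RUNX match at 114 to 109 bases and the TIMPs held none of the 3 motifs. Mmp2, Mmp9 and Mmp16 were not matched. A match describes letters in a window and not a bound site. The other members lie apart on GRCm38, with Mmp2 at chr8:92827291-92853420, Mmp9 at chr2:164940780-164955850, Mmp14 at chr14:54431612-54445364, Mmp16 at chr4:17852893-18119145, Timp1 at chrX:20870166-20874735, Timp3 at chr10:86300372-86349506 and, on the minus strand, Timp2 at chr11:118301069-118355740.

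To see which callus cells held the transcripts, the cells were clustered without the member genes, and clusters were named by marker genes as "-like" classes. The 10 genes fell into a few patterns of cell class. Mmp13 and Mmp14 were highest in an osteoprogenitor-like class, Mmp9 in osteoclast-like cells, Mmp8 in neutrophil-like cells, Mmp3 and Timp1 in inflammatory stromal-like cells, Mmp2 and Timp2 in tenocyte-like cells, Mmp16 in osteoblast-like cells and Timp3 in pericyte-like cells. These are orders of the median over the libraries and were not tested. The osteoprogenitor-like class was named by 4 of its 5 markers, among them Kcnk2 and Gdpd2, and Cxcl12, a marker of pre-adipocytes, stood with Mmp9 among its 10 leading genes. The summed level of the 5 markers there was 693, 1567 and 917 UPM in the controls and 500, 881 and 594 in the knockouts. Osteocyte-like cells had more in control 1 (871) and knockout 3 (797.5). Osteoblast-like cells had more in control 1 (737) and knockout 1 (788), and HTC-like cells in knockout 1 (509). Because the libraries read 3′ ends, UPM were compared between genes without a length term.

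**Figure D1:**
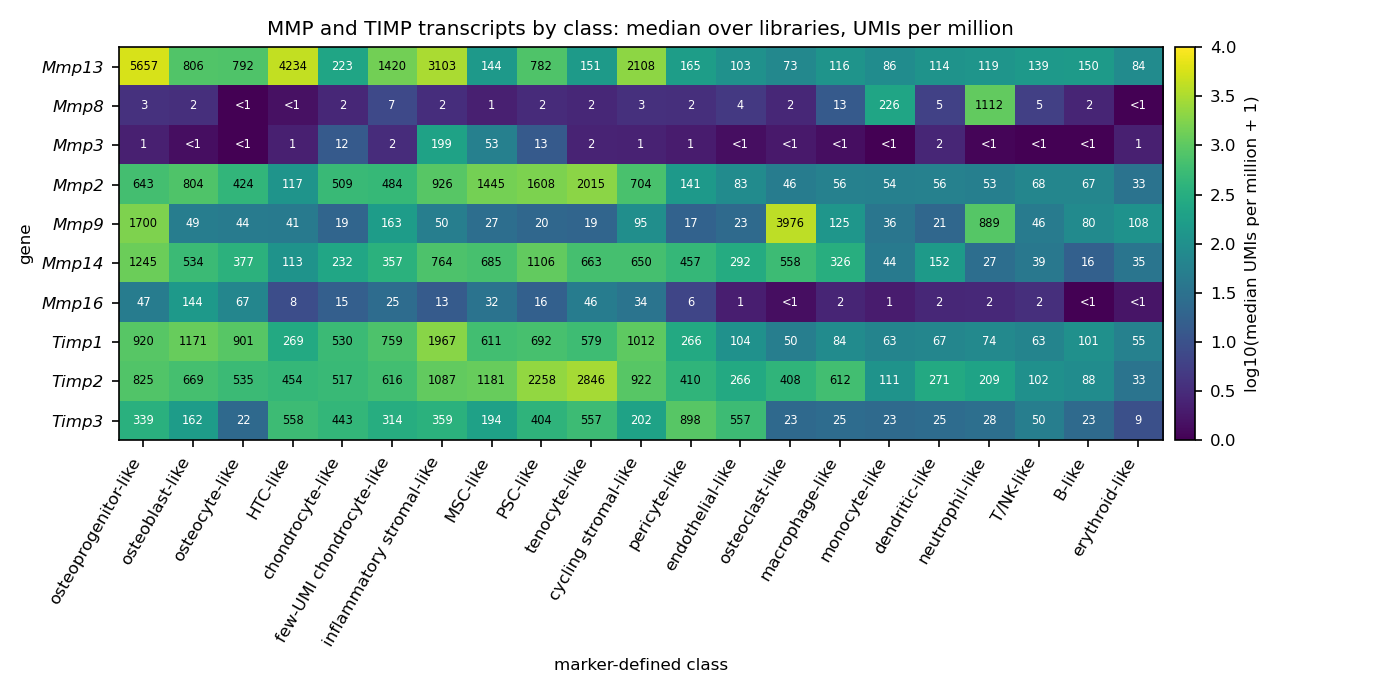
Median level of each of the 10 genes over the libraries, by cell class, printed as UPM (UMIs per 1000000) and coloured by log10(UPM + 1). Mmp8 in neutrophil-like cells, with a median of 1112, was the only leading level whose range over libraries did not overlap that of the next class.

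Mmp13, the main collagenase of mouse cartilage and bone, had its highest medians in osteoprogenitor-like, hypertrophic chondrocyte (HTC)-like and inflammatory stromal-like cells. In the osteoprogenitor-like class it stood at 5446, 5666 and 5649 UPM in controls 1 to 3 and at 7668, 6784 and 4872 in knockouts 1 to 3. In the HTC-like class it stood at 3100, 918 and 6023 in the controls and at 5368, 8685 and 2701 in the knockouts. That class held few cells in some libraries, with 94, 13 and 20 in the controls and 48, 25 and 422 in the knockouts. The summed level of the 7 HTC markers there was 49700, 66420 and 15590 UPM in the controls and 31630, 13220 and 29740 in the knockouts. In knockout 2 it lay below the 14050 of chondrocyte-like cells. In inflammatory stromal-like cells Mmp13 stood at 2045, 3166 and 3040 in the controls and at 5696, 5342 and 1937 in the knockouts. This class joins a cluster led by Saa3 and Cxcl5, with a median Mmp13 level of 1506, and a cluster led by Chil1, with 5231, and their cells numbered 44 and 37 in control 1, 759 and 313 in control 3 and 170 and 40 in knockout 1. The osteoprogenitor-like level exceeded the HTC-like level in 4 of 6 libraries and the ranges overlapped, so the order of these neighbours was not fixed by the data. Cycling stromal-like cells followed with a median of 2108 UPM and a range of 939 to 2820, which overlapped the inflammatory stromal-like range. Chondrocyte-like cells, with Ucma and Col2a1 among their leading genes, had a median of 223 UPM. The lowest median was in osteoclast-like cells, at 73.3 UPM. Mmp13 was found in 94.9% of osteoprogenitor-like cells, against 25.8% of T and NK-like cells, a class that should lack the gene. Free RNA and doublets can both give UMIs there, and in knockout 3 a single T and NK-like cell held 88 of the 122 Mmp13 UMIs. With every cell thinned to 500 UMIs the shares were 69.0% and 6.45%, and the median depths before thinning were 8383 and 2618 UMIs per cell. Stromal classes together held a median of 94.0% of a library's Mmp13 UMIs. The share was 21.4% in osteoprogenitor-like, 16.1% in inflammatory stromal-like, 8.7% in cycling stromal-like, 7.54% in PSC-like and 7.24% in HTC-like cells. The osteoprogenitor-like class led Mmp13 by its median, but the class itself depended on the clustering. With the stricter cell filter, without integration and at resolutions 0.4 and 1.2, no osteoprogenitor-like class was there to be ranked. Inflammatory stromal-like cells then led with the stricter filter or with resolution 0.4, and HTC-like cells without integration. With resolution 1.2 the leading class carried the pre-adipocyte name.

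Mmp8, the neutrophil collagenase kept in granules, was a transcript of myeloid classes. In neutrophil-like cells it stood at 2543, 1032 and 273 UPM in the controls and at 1796, 851 and 1191 in the knockouts. Monocyte-like cells came next, at 135, 232 and 222 in the controls and 234, 106 and 259 in the knockouts, and macrophage-like cells had a median of 12.7. The neutrophil-like and monocyte-like levels did not overlap, nor did the monocyte-like and macrophage-like levels, and each step of this order was seen in 6 of 6 libraries. The neutrophil-like class joined 3 clusters with median Mmp8 levels of 1344, 2349 and 43.5, the last led by Camp, Ngp and Elane, genes of immature granulocytes. That cluster lay below the monocyte-like range in the 4 libraries that held enough of its cells, and it had 2 cells in control 1 and 272 in control 3. Neutrophil-like cells held a median of 87.4% of a library's Mmp8 UMIs, from 62.3% in control 3 to 90.9% in control 2. A UMI was found in 50.6% of neutrophil-like cells, at a median of 2475 UMIs per cell, and in 1.19% of T and NK-like cells. Thinned to 500 UMIs, the shares were 30.2% and 0.239%.

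Mmp3, a stromelysin with a broad range of matrix substrates, differed more between libraries than between classes. In inflammatory stromal-like cells it stood at 0, 393 and 1785 UPM in the controls and at 2409, 4.88 and 3.18 in the knockouts. The high libraries, control 3 and knockout 1, came from both groups, and the low libraries did too. In MSC-like cells, a stromal class named by Pi16 and Clec3b, Mmp3 stood at 66.7, 17.9 and 376.5 in the controls and at 462.8, 32.4 and 39.9 in the knockouts. Control 3 and knockout 1 were above the other 4 libraries in 17 of the 18 classes that both libraries held. The acute-phase gene Saa3 and the chemokine gene Cxcl5, which mark the inflammatory stromal-like class, were above the other 4 libraries in the same pair in 17 and 18 of 18 classes. Their part in the Mmp3 levels was not tested. The markers of the class were not high in each library. The summed level of the inflammatory stromal markers in this class was 27410 UPM in control 3, 13940 in knockout 1 and 1947 in control 2, but 207 in control 1, 262 in knockout 2 and 376 in knockout 3. In the last 3 it lay below the 393, 458 and 504 of MSC-like cells, so levels under this name there are those of cells that clustered with the class. In control 3 the 30672 inflammatory stromal-like Mmp3 UMIs were spread widely, with 1.74% in the highest cell. In knockout 1 the highest cell held 3420 of 23660 UMIs, or 14.5%. By the median, MSC-like cells led for Mmp3 when control 2, control 3 or knockout 1 was left out, at 66.7, 39.9 and 39.9 UPM. They also led at resolution 0.4, at 56.2 UPM, and HTC-like cells led when doublets were kept.

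**Figure D2:**
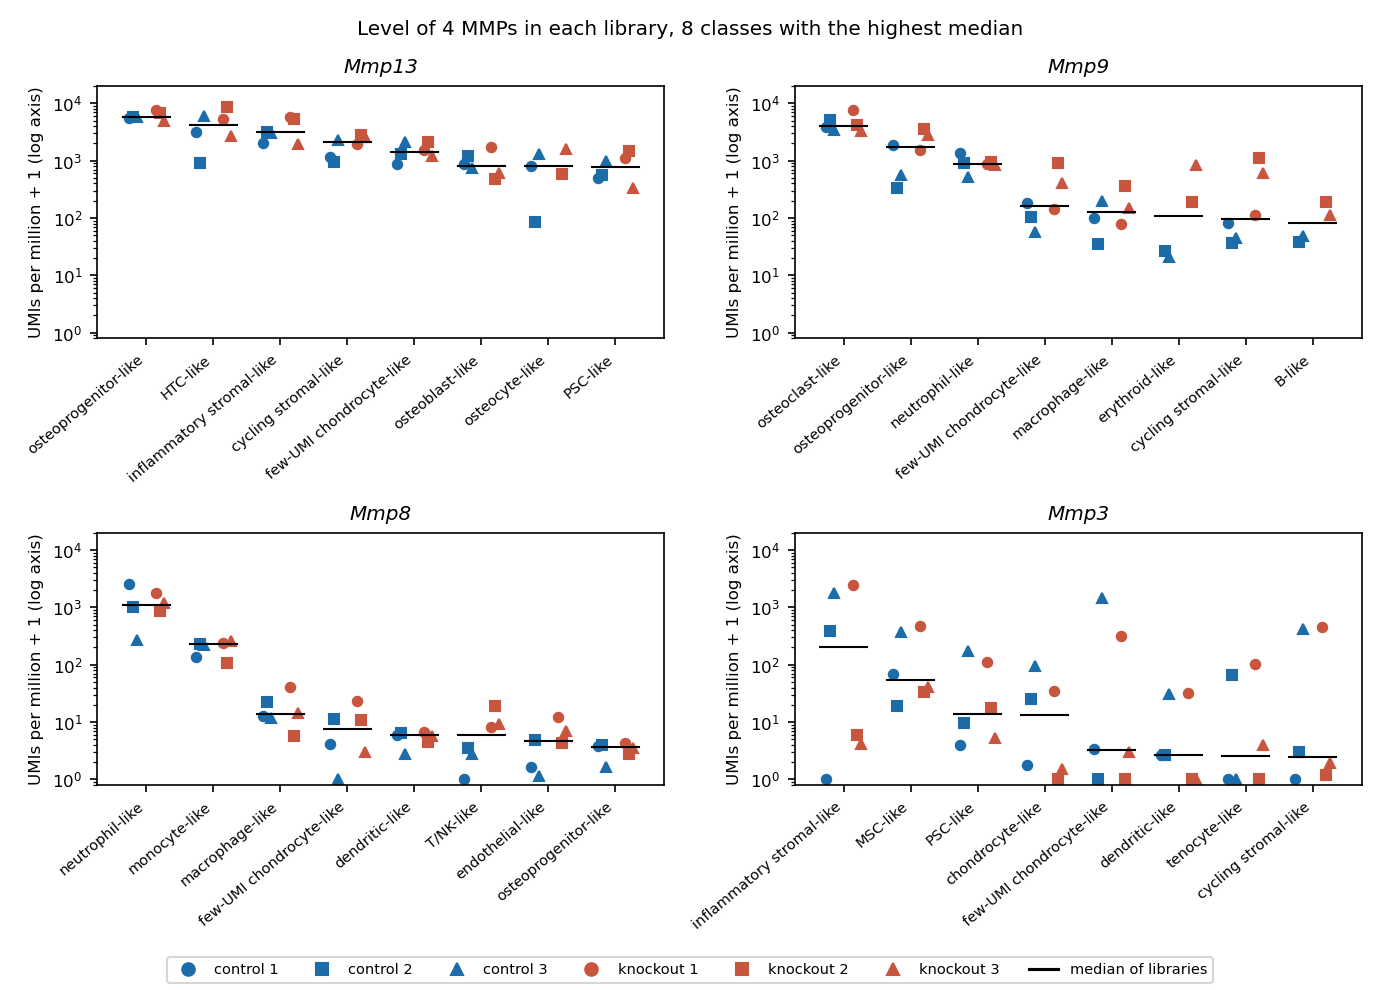
Level of Mmp13, Mmp9, Mmp8 and Mmp3 in each library, as UPM + 1 on a log axis, in the 8 classes with the highest median of each gene; points are libraries, coloured by label and shaped by replicate, and lines are medians. The libraries lay close together for Mmp13 in the osteoprogenitor-like class and far apart for Mmp3 in inflammatory stromal-like cells, where they ran from 0 to 2409 UPM.

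The gelatinase Mmp2, which cuts denatured collagen and basement membrane collagen, was a transcript of fibrous stromal classes. In tenocyte-like cells it stood at 1983, 2139 and 1296 UPM in the controls and at 2541, 2047 and 1801 in the knockouts. In the PSC-like class, named for periosteal skeletal stem/progenitor cells, it stood at 2046, 1669 and 1299 in the controls and at 2178, 929 and 1546 in the knockouts, and the MSC-like median was 1445. The groups overlapped in these classes, and the tenocyte-like level was above the PSC-like level in 4 of 6 libraries. The PSC-like class held a median of 30.4% of a library's Mmp2 UMIs.

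The gelatinase Mmp9, a product of osteoclasts and neutrophils, had its highest medians in 3 classes. In osteoclast-like cells it stood at 3785, 5106 and 3445 UPM in the controls and at 7742, 4168 and 3232 in the knockouts, above the osteoprogenitor-like level in 6 of 6 libraries. In the osteoprogenitor-like class it stood at 1868, 336 and 552 in the controls and at 1533, 3558 and 2760 in the knockouts. That class was not there with the stricter cell filter, without integration or at resolutions 0.4 and 1.2. Neutrophil-like cells stood at 1354, 919 and 509 in the controls and at 859, 948 and 830 in the knockouts. The groups overlapped in each of these 3 classes. Osteoclast-like cells held a median of 48.8% of a library's Mmp9 UMIs, between 42.0% and 75.1%, and the osteoprogenitor-like class 16.6%. A UMI was found in 84.8% of osteoclast-like, 73.0% of neutrophil-like and 61.8% of osteoprogenitor-like cells, against 18.4% of T and NK-like cells. Thinned to 500 UMIs, these shares were 51.6%, 38.8%, 22.3% and 4.06%.

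The Mmp9 of the osteoprogenitor-like class was set beside the markers of osteoclasts. Of its 1621 cells, 325 held at least 10 Mmp9 UMIs, and 236 of these held fewer than 10 UMIs of the 8 osteoclast markers together. Of the 325 cells, 306 also held at least 10 Mmp13 UMIs. A Mmp13 UMI was found in 94.9% of all cells of this class, and the share of them with at least 10 was not counted. Among osteoclast-like cells 912 of 1639 held at least 10 Mmp9 UMIs, and only 2 of them held fewer than 10 osteoclast-marker UMIs and 8 held at least 10 of Mmp13. The ratio of Mmp9 to Acp5 UMIs, Acp5 being the acid phosphatase of osteoclasts, was 14.3 to 61.3 in the osteoprogenitor-like class and 0.342 to 0.713 in osteoclast-like cells. The osteoprogenitor-like ratio was above the osteoclast-like ratio in 6 of 6 libraries. A high ratio was not particular to this class, since neutrophil-like cells had 2.69 to 56.4. Where the Mmp9 of these osteoprogenitor-like cells came from was not tested. The summed level of the 8 osteoclast markers was 242 to 589 UPM in the osteoprogenitor-like class and 13680 to 24670 in osteoclast-like cells.

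Mmp14, a membrane-type MMP that activates pro-MMP2 at the cell surface, was broad, with its highest medians in stromal classes. In the osteoprogenitor-like class it stood at 1830, 591 and 1210 UPM in the controls and at 1700, 1281 and 1058 in the knockouts. In PSC-like cells it stood at 1695, 972 and 958 in the controls and at 1445, 1240 and 764 in the knockouts. These neighbours overlapped in range. Medians were 558.5 in osteoclast-like, 457 in pericyte-like, 326 in macrophage-like and 292 in endothelial-like cells. Chondrocyte-like and HTC-like cells were lower, at 232 and 113. Stromal classes together held a median of 69.8% of a library's Mmp14 UMIs. With the stricter cell filter, without integration and at resolutions 0.4 and 1.2, no osteoprogenitor-like class was there to be ranked. PSC-like cells then led with the stricter filter or without integration. Inflammatory stromal-like cells led at resolution 0.4 and the class with the pre-adipocyte name at resolution 1.2. Mmp16, another membrane-type MMP, was low. It stood highest in osteoblast-like cells, at 177, 134 and 147 in the controls and at 141, 202 and 81.9 in the knockouts, above osteocyte-like cells in the 5 libraries that held both. A Mmp16 UMI was found in 75.5% of osteoblast-like and 0.955% of T and NK-like cells, but in 9.55% and 0% after thinning to 500 UMIs.

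Among the inhibitors, Timp1, a secreted TIMP, was highest in inflammatory stromal-like cells, at 1010, 1349 and 3588 UPM in the controls and at 2585, 3830 and 1189 in the knockouts. Within that class the median of Timp1 was 2629 in the Saa3 and Cxcl5 cluster and 922 in the Chil1 cluster. Osteoblast-like cells followed with a median of 1171, and the ranges overlapped. Timp2, which both inhibits MMP2 and takes part in its activation by MMP14, was highest in tenocyte-like cells, at 4414, 2952 and 2182 in the controls and at 3488, 1053 and 2739 in the knockouts, above the PSC-like level in 6 of 6 libraries. Knockout 2 was the lowest of the 6 libraries for Timp2 in both classes, with 927 in PSC-like cells, but it held only 10 tenocyte-like cells. Timp3, a TIMP bound to the matrix, had its highest median level in pericyte-like cells. It stood at 1750, 1099 and 439 in the controls and at 1099, 200 and 697 in the knockouts in pericyte-like cells, with medians of 558 in HTC-like and 557 in endothelial-like and tenocyte-like cells, whose ranges overlapped. By share of a library's Timp3 UMIs, chondrocyte-like cells held a median of 24.4%, endothelial-like cells 17.3% and pericyte-like cells 7.5%. A Timp3 UMI was found in 73.8% of pericyte-like and 6.92% of T and NK-like cells, and in 27.9% and 0.956% after thinning to 500 UMIs. Mmp16 overlaps Gm11860, Timp1 overlaps Syn1, and Timp3 overlaps Syn3, on the opposite strand, and Timp2 overlaps Cep295nl on its own strand. Of these pairs only Timp3 and Syn3 share exon bases in the annotation, so their reads may not have been told apart.

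Set against each other, the summed UMIs of the 7 MMPs and of the 3 TIMPs gave a ratio that differed widely between classes. The median ratio was 10.4 in osteoclast-like cells, with a range of 7.5 to 14 over the libraries, and 7.14 in neutrophil-like cells, with a range of 4.51 to 11.2. It was 4.64 in the osteoprogenitor-like class and 2.69 in HTC-like cells, where it ran from 0.871 to 3.98. The TIMPs outweighed the MMPs by the median in chondrocyte-like cells at 0.797, tenocyte-like cells at 0.711, endothelial-like cells at 0.626 and pericyte-like cells at 0.471. In pericyte-like cells the ratio ran from 0.271 to 5.45 between libraries. The ratio adds transcripts and not enzyme or inhibitor activity.

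**Figure D3:**
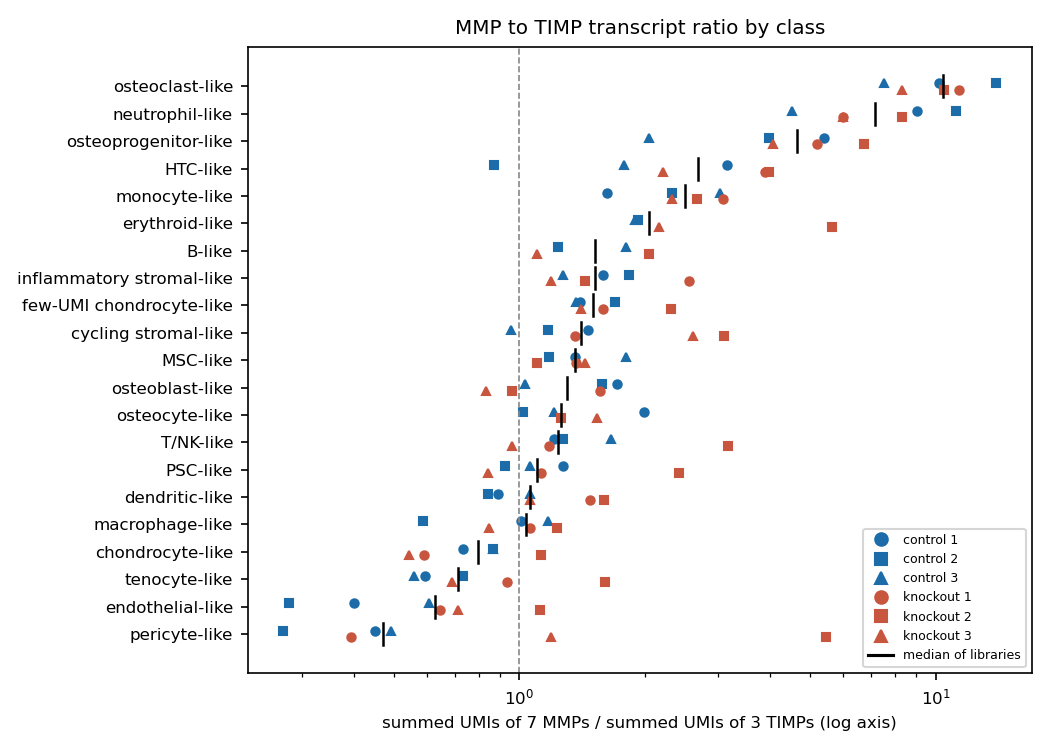
Ratio of summed MMP to summed TIMP UMIs on a log axis, by cell class, with 1 point per library coloured by label and shaped by replicate, a short line at the median and a dashed line at 1 where the sums are equal. Osteoclast-like and neutrophil-like cells lay above 1 in 6 of 6 libraries, and the pericyte-like median was 0.471.

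To see how far single cells carry a library's sum, the highest cell was taken in each of the 975 sums of a gene in a class and library with at least 10 UMIs. The highest cell held a median of 7.84% of the sum, and more than 25% in 136 sums. This was most frequent for Mmp3, in 20 of 53 sums, Mmp9, in 28 of 110, Mmp8, in 9 of 45, and Mmp13, in 23 of 118. It was least frequent for Mmp2, in 5 of 119 sums, and Timp2, in 6 of 120. The 136 sums led back to 117 cells, of which 14 led in 2 or more sums. In 122 of the 136 sums that cell held more UMIs than the median cell of its class.

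The largest shares stood in classes that are not the main source of the gene. In the HTC-like class of knockout 1, 1 cell held 2192 of the 2238 Mmp3 UMIs, or 97.9%, and this cell of 131276 UMIs also held 4313 UMIs of the inflammatory stromal markers. In the same class and library another cell held 1058 of the 1113 Mmp9 UMIs, or 95.1%. In erythroid-like cells of knockout 3, 1 cell held 211 of 225 Mmp9 UMIs and also 1089 UMIs of the osteoclast markers. The first and the last of these cells thus held many marker UMIs of another class, and whether such cells are doublets that escaped removal was not tested. In T and NK-like cells of knockout 1, 1 cell held 134 of 158 Timp2 UMIs. In macrophage-like cells of control 1 the same cell held 248 of 329 Timp1 UMIs and 459 of 673 Mmp13 UMIs. Classes with high levels were also uneven for some genes and libraries. In the osteoprogenitor-like class 1 cell held 42.0% of the Mmp9 UMIs of control 1 and 55.4% of those of knockout 1, while in osteoclast-like cells the highest cell held 2.68% in control 3. In osteoclast-like cells of knockout 1, the library with the highest level there, 1 cell held 1571 of 4218 Mmp9 UMIs, or 37.2%.

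**Figure D4:**
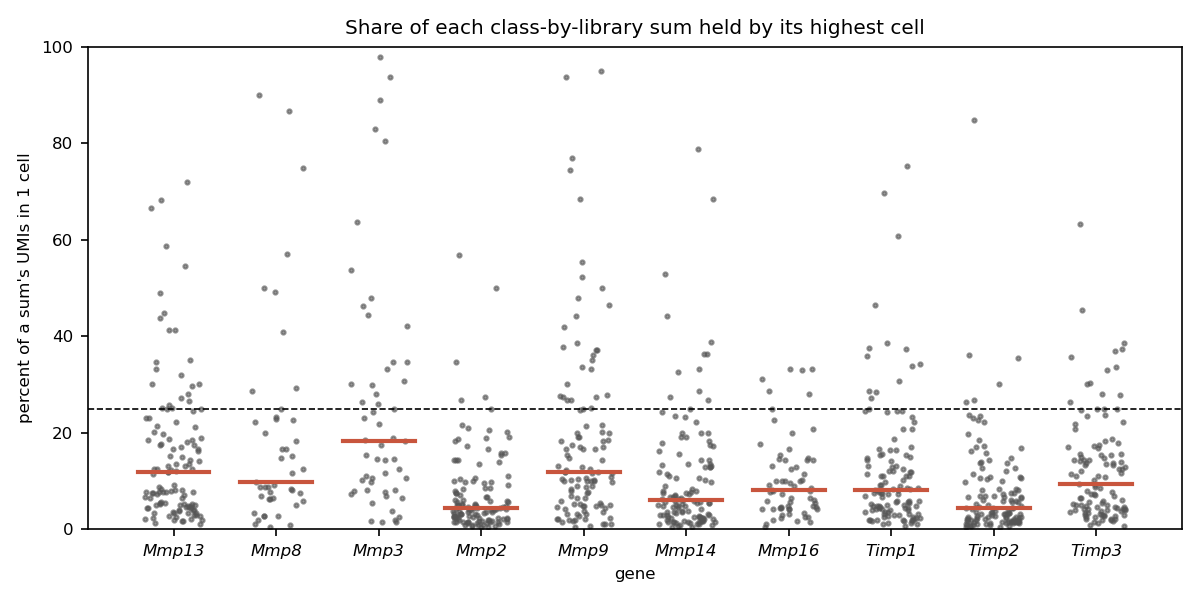
Percent of the UMIs of a gene, class and library that the highest single cell held, for 975 sums of at least 10 UMIs shown as points, with the median of each gene as a bar and a dashed line at 25%. Mmp3 had the highest median at 18.2%, and Mmp2 and Timp2 had medians of 4.43% and 4.42%.

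To ask whether the genes changed with the knockout label, each class was tested over libraries with edgeR's quasi-likelihood test, with p-values adjusted over all genes of the class. None of the 169 tests of the 10 genes in 21 classes, and none of the 10 in the stromal aggregate, passed an adjusted p of 0.05, while 26 of the 169 and 1 of the 10 were below an unadjusted p of 0.05. DESeq2 called 4 of these 179 tests, each of them Mmp9, in HTC-like, cycling stromal-like, osteoblast-like and erythroid-like cells. The share that DESeq2 called over all genes of these classes is not given here. The erythroid-like test rested on 4 libraries, and in knockout 3 a single cell held 211 of the 225 Mmp9 UMIs. Over all genes in the 21 classes edgeR called 1 of 205712 tests, or 0.000486%, and 3.23% were below an unadjusted p of 0.05, between 0.946% and 7.68% in single classes. In the stromal aggregate it called 0 of 18194 genes, with 1.51% below that p, and DESeq2 called 0 there too, with 423 below it. On simulated counts, changes of 2 on the log2 scale were recovered for 27.7% of changed genes in the stromal aggregate. The share was 50.9% in HTC-like and 85.9% in osteoclast-like cells. Many genes drawn at random were changed together there, so these shares are not the chance of calling 1 of the 10 genes. As changes of this size were missed, the count of 0 does not show that the genes were alike.

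In its leading class, none of the 10 genes passed the test between the labels. The log2 fold change was 0.28 ± 0.31 for Mmp13 in the osteoprogenitor-like class (SE, adjusted p = 0.888, edgeR), 0.30 ± 0.33 for Mmp9 in osteoclast-like cells (adjusted p = 0.999) and 0.12 ± 0.68 for Mmp8 in neutrophil-like cells. It was 0.14 ± 0.39 for Mmp2 in tenocyte-like cells, 0.24 ± 0.40 for Mmp14 in the osteoprogenitor-like class and -0.02 ± 0.36 for Mmp16 in osteoblast-like cells. The SE of Mmp3 in inflammatory stromal-like cells was 2.31 around a change of -0.03, the widest of the 10. The inhibitors gave 0.31 ± 0.63 for Timp1 in inflammatory stromal-like cells, -0.43 ± 0.50 for Timp2 in tenocyte-like cells and -0.67 ± 0.60 for Timp3 in pericyte-like cells (adjusted p = 0.922). Control and knockout libraries overlapped for each of these values.

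The estimates for Mmp9 lay on the side of the libraries labelled knockout in class after class, with no call by edgeR. Its log2 fold change was above 0 in 21 of 21 classes, with a median of 2.13 and a range of 0.08 to 5.70, and 16 classes were below an unadjusted p of 0.05. The classes come from the same libraries, so they are not independent of each other and do not add replicates of the label. Over all genes the median log2 fold change lay between -0.03 and 0.04 in these classes. How many genes kept the same sign in all classes was not counted. Without TMM scaling the neutrophil-like change of Mmp9 was -0.07, which left 20 of 21 above 0. In HTC-like cells Mmp9 stood at 14.9, 8.02 and 18.3 UPM in the controls and at 510, 189 and 64.1 in the knockouts, and the groups did not overlap (log2 fold change 4.10 ± 0.69, adjusted p = 0.26, edgeR). These levels rest on only 13 cells in control 2, 20 in control 3 and 25 in knockout 2. In knockout 2 the summed HTC markers of these cells lay below those of chondrocyte-like cells. With the highest Mmp9 cell of each library left out, the log2 fold change of Mmp9 in HTC-like cells was 2.78 ± 0.64. In pericyte-like cells Mmp9 stood at 12.9, 15.0 and 19.6 in the controls and at 13.1, 1836 and 549 in the knockouts. There knockout 1 lay within the controls and the groups overlapped, and the log2 fold change was 5.70 ± 1.30 (adjusted p = 0.922, edgeR). In cycling stromal-like cells Mmp9 stood at 80.4, 35.2 and 44.4 in the controls and at 110, 1097 and 601 in the knockouts, with no overlap (3.59 ± 0.80, adjusted p = 1, edgeR). In knockout 1 a single cell of the 68 in this class held 268 of the 392 Mmp9 UMIs, or 68.4%. The level of knockout 1, the lowest of the knockouts here, thus rests largely on that cell. In the stromal aggregate the change was 2.80 ± 0.89 for Mmp9 (adjusted p = 1, edgeR), and the changes of the other 9 genes there lay between -0.61 for Mmp3 and 1.2 for Mmp16.

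Knockout 2 carried much of this Mmp9 difference. Mmp9 was highest in knockout 2 in 17 of 21 classes, and knockouts 2 and 3 were above every control in 15 of 21, while knockout 1 was above every control in 6 of 18. Without knockout 2 the log2 fold change of Mmp9 was above 0 in 16 of 19 classes, with a median of 1.04, and 10 classes were below an unadjusted p of 0.05. Without knockout 1 the median was 2.43 and edgeR called Mmp9 in 2 classes, and without knockout 3 it was 2.19. The share called over all genes of these 2 classes is not given here. In the stromal aggregate, 2140 of 18707 genes were below an unadjusted p of 0.05 without knockout 1. With all libraries 275 of 18194 were. The osteoclast genes Acp5 and Ctsk were set beside Mmp9. Acp5 was highest in knockout 2 in 19 of the 20 classes other than osteoclast-like cells, and knockouts 2 and 3 were above every control in 19 of 20. Ctsk was highest in knockout 2 in 11 of these 20 classes, and knockouts 2 and 3 were above every control in 9. The summed level of the 8 osteoclast markers in HTC-like cells was 128 to 129 UPM in the controls and 121 to 397 in the knockouts, in pericyte-like cells 152 to 226 and 123 to 590, and in cycling stromal-like cells 247 to 346 and 275 to 512. All 8 markers had a UMI in each of these 3 classes. The summed level of the 9 neutrophil markers in pericyte-like cells was 82.6 to 807 UPM in the controls and 172, 6100 and 1151 in knockouts 1 to 3. The neutrophil gene S100a8 was highest in knockout 2 in 16 of the 20 classes other than neutrophil-like cells. The part of such transcripts from other cells in the Mmp9 values was not tested.

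The ratio of Mmp9 to Acp5 UMIs in the other classes was set beside that of osteoclast-like cells. It was 0.2 to 0.445 in T and NK-like cells, 0.455 to 0.769 in monocyte-like cells and 0.409 to 0.811 in PSC-like cells, against 0.342 to 0.713 in osteoclast-like cells. Macrophage-like cells were lower, at 0.117 to 0.229, and inflammatory stromal-like and few-UMI chondrocyte-like cells reached 3.75 and 2.59. Osteocyte-like cells reached 5.16 in control 1, and neutrophil-like cells ran from 2.69 to 56.4. In cycling stromal-like cells the ratio was 0.756 to 3.28 in the controls and 5.03, 4.84 and 9.05 in the knockouts. In pericyte-like cells it was 5.96 in knockout 2 and 11.8 in knockout 3 and 0.529 to 1.84 in the other 4 libraries. Of the pericyte-like Mmp9 UMIs, 4 cells held 90.9% in knockout 2 and 7 cells held 92.3% in knockout 3. Over all libraries 12 of 1689 pericyte-like cells held at least 10 Mmp9 UMIs, and 11 of the 12 also held at least 10 Mmp13 UMIs. Of cells with at least 10 Mmp9 UMIs, 306 of 325 did so in the osteoprogenitor-like class. So did 10 of 10 in HTC-like and 8 of 9 in chondrocyte-like cells. A Mmp13 UMI was found in 97.9% of all HTC-like, 66.1% of chondrocyte-like and 35.0% of pericyte-like cells. The share of all cells with at least 10 was not counted, so these counts do not show a link between the 2 genes. In HTC-like cells the ratio was 48.4 in knockout 1, where 1 cell held 95.1% of the Mmp9 UMIs.

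**Figure D5:**
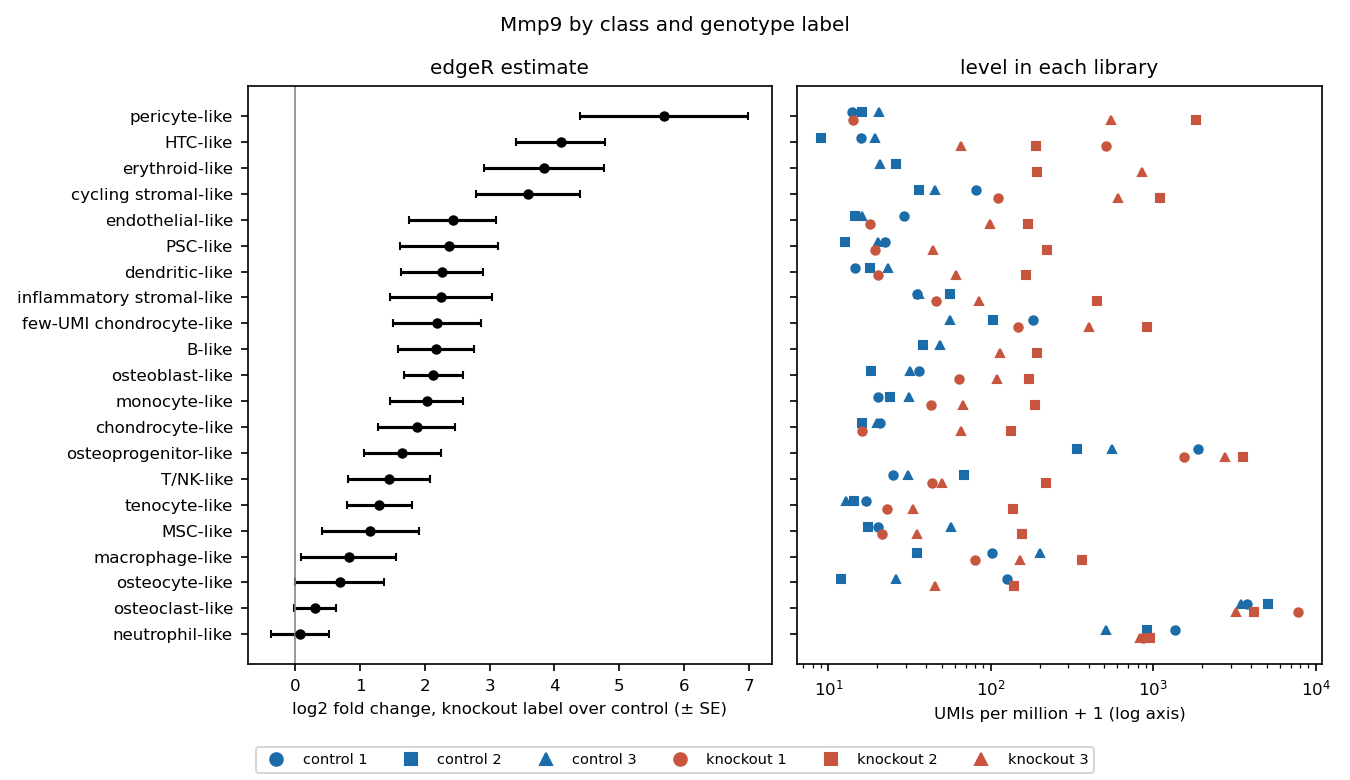
Mmp9 in 21 classes, with the edgeR log2 fold change of knockout label over control and its SE on the left and the level in each library as UPM + 1 on a log axis on the right, coloured by label and shaped by replicate. Knockout 2 was the highest library in 17 of 21 classes, while in osteoclast-like cells control and knockout libraries overlapped.

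For the other genes fewer classes were below an unadjusted p of 0.05. The log2 fold change of Mmp13 was above 0 in 18 of 21 classes, 5 of them below an unadjusted p of 0.05, with 0.85 ± 0.24 on the log2 scale in osteoclast-like cells and 3.00 ± 1.02 in pericyte-like cells, where 1 cell of knockout 2 held 482 of 985 Mmp13 UMIs. That of Mmp14 was above 0 in 13 of 20 classes, 2 of them below that p, and that of Timp1 in 16 of 21, also with 2. That of Timp2 was below 0 in 12 of 21 classes, and that of Timp3 in 11 of 19. For Mmp2, Mmp3, Mmp8, Mmp16 and Timp3 no class was below an unadjusted p of 0.05. In the 18 classes with 3 libraries of each label, the levels of the 2 groups did not overlap in 15 of 180 comparisons of the 10 genes, or 8.33%. The share was 7.35% among all genes that passed the count filter, which was not applied to the 180, so these sets are unlike. Levels near 0 were among the 15, such as Mmp8 in PSC-like cells at 0.437 to 3.40 UPM. The direction of change was not counted over all genes. No result about the 10 genes is read from this count. Of these 15, 14 were higher in the knockout libraries, 5 of them Mmp9 and 3 Mmp13, and each had the exact two-sided permutation p of 0.1, the smallest that 3 against 3 libraries can give. Those of Mmp13 were in dendritic-like, endothelial-like and osteoclast-like cells, with medians of 114, 103 and 73.3 UPM. The T and NK-like median was 139. Higher in the controls was Mmp2 in chondrocyte-like cells. That class joined 2 clusters with median Mmp2 levels of 803 and 241, of which control 3 held 407 and 78 cells and knockout 2 held 5 and 13. Within the second cluster, the groups overlapped.

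To place the 10 genes among others, the genes whose levels ran most alike over 121 class and library sums were listed, with Pearson's r on log2 levels among 7347 genes. Sums of 1 library and of 1 class share their cells' source, so r is a description. Mmp8 ran with Trem3 (r = 0.956), Trem1 and Cd177, genes of myeloid cells, and Mmp3 with Cxcl5 (r = 0.839) and Saa3 (r = 0.823). Mmp2 ran with the matrix genes Thbs2 (r = 0.937), Cthrc1 and Col5a1. Mmp13 ran with Podnl1 (r = 0.852), Spp1 (r = 0.843) and Alpl (r = 0.814), the last of which encodes the phosphatase of mineralizing cells. Mmp16 ran with Gm43921 (r = 0.861) and the collagen genes Col1a1 and Col1a2, Mmp14 with Cd276 (r = 0.877), and Mmp9 less closely with Mt3 (r = 0.708). Timp1 ran with Creb3l1 (r = 0.895), Timp2 with Ltbp3 (r = 0.85) and Timp3 with Wwtr1 (r = 0.895).

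Of the further proteases and inhibitors, 6 of 16 other MMPs passed 50 UPM by the median of a class, the highest being Mmp23 in PSC-like cells at 208.8, with a range of 197.5 to 288.8. None of 8 other inhibitors passed that level. Of 16 ADAM and ADAMTS proteases, which include the aggrecanases, 15 passed, led by Adamts1 in pericyte-like cells at 469 (162 to 665). Of 14 activators and cell-surface partners 13 passed, led by the cathepsin gene Ctsb in macrophage-like cells at 4545 (3465 to 6039). None of the 641 tests of these genes between the labels was called by edgeR, and 31 were below an unadjusted p of 0.05. DESeq2 was not run for them.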

How the data were processed

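The authors deposited 1 matrix of UMI counts per gene and cell barcode for each library, made on GRCm38 per the labels with Cell Ranger, whose version per the file headers was 6.1.1 for control 1 and knockout 1 and 6.1.2 for the rest. Control 3 and knockout 3 list other genes than the rest do, so only the 52081 identifiers found in each library were kept, which held 97.767% to 99.657% of the UMIs. Whether strand was used in counting is not given in the sources used here. No column of another sample was met.

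Cells with at least 500 UMIs, 200 genes and at most 20% mitochondrial UMIs were kept (44761 of 46944 barcodes), and 3056 cells with the highest Scrublet scores were removed as doublets, 0.8% per 1000 cells, because Scrublet's own threshold marked none in 3 libraries. Libraries were integrated with Seurat 5.3.0 (reciprocal PCA, 2000 variable genes without the member genes, 30 components) and clustered with leidenalg 0.10.2 in scanpy 1.11.5 at resolution 0.8. A cluster was named where at least 3 markers were each in 25% of its cells and 2-fold over the median cluster. The thresholds for names, and for few-UMI clusters (median under 2000 UMIs), were set after the data were seen, and 1919 cells stayed unnamed.

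UMIs were summed per library and class (at least 10 cells) and scaled to 1000000 UMIs of that sum (UPM). The study compared cells, but here the library was the replicate, since the labels give a callus from each mouse. The study's results and methods differ in the number of mice, so p-values measure the spread between libraries. Sums were tested with edgeR 4.0.16 (quasi-likelihood, TMM, filterByExpr, two-sided, Benjamini-Hochberg over all genes of a class, R 4.3.3), and levels with a two-sided exact permutation test on log2(UPM + 10), which has 20 assignments of 3 against 3 libraries and cannot give a p below 0.1. Each SE was worked back from the edgeR test, as the absolute log2 fold change over the square root of its F statistic. The tests were run first on simulated data. Shares of cells were also taken after thinning each cell to 500 UMIs.

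The 10 genes, the marker and protease lists and the rules were chosen with earlier results of these data known. All 10 were named, other listed genes only where they led their list, and the like genes were the 3 with the highest Pearson's r. Alternatives were a stricter cell filter, no doublet removal, no integration, resolutions 0.4 and 1.2, DESeq2 1.42.0, no TMM, no filter on low counts, the replicate block, leaving out each library, replicate 3 of both groups or the highest cell, totals without mitochondrial and rRNA-overlapping genes, and, chosen after seeing the data, pseudocounts of 1 and 100.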

Additional observations from a re-analysis of the deposited data

How the results depend on the processing

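With 3 libraries per label the depth of a class and the spread between libraries limit what a test can call, and the count of genes called by label moved with the processing while the leading classes and the sums carried by 1 cell moved less. The count of 0 of 179 became 4 with DESeq2, 1 at resolution 0.4 (Mmp9 in HSPC-like cells, log2 fold change 3.26) and 25 of 220 without a filter on low counts, 13 of these Mmp9. The shares called over all genes of the classes under these settings are not given here, so these counts have no background beside them. The count ran from 0 to 2 when 1 library was left out. Without knockout 1 Mmp9 was called in cycling stromal-like (adjusted p = 0.0433, edgeR) and pericyte-like cells (adjusted p = 0.0185, edgeR). The share called over all genes is not given for these fits either. Without knockout 3 the osteocyte-like fit had knockout 2 as its only knockout library, since knockout 1 held 8 such cells. The log2 fold change of Timp3 was -3.08 there and rests on that library. Why the count moved was not tested. The count stayed 0 in the other alternatives, and in the stromal aggregate 0 genes were called in each alternative. Between 7 and 10 of the 10 genes kept their leading class, and 100 to 196 sums had over 25% in 1 cell. The exact test gave the same count with pseudocounts of 1 and 100.

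Of 210 alternative log2 fold changes in leading classes and the stromal aggregate with all libraries or both replicates 3 left out, 186 kept their sign, as did 96 of 120 with 1 library left out. The others changed sign, and the cause was not tested. Replicate numbers did not pair the libraries throughout. Same-numbered stromal deviations correlated at 0.256, -0.106 and -0.188, and 2 of 6 libraries correlated best with their own number. In endothelial-like cells the values were 0.303, -0.0514 and 0.0918 and 3 of 6, and in macrophage-like cells 1 of 6. Control 1 and knockout 1 correlated best with each other in the stromal aggregate and in endothelial-like cells, and both were counted with Cell Ranger 6.1.1. The replicate block called 0 tests and turned 1 sign, Timp1 in the stromal aggregate at 0.61. Without TMM the median change of all genes moved by over 0.1 in 4 of 22 fits, by 0.46 in erythroid-like, -0.16 in osteocyte-like, -0.12 in neutrophil-like and -0.1 in osteoprogenitor-like cells, and 12 changes of the 10 genes turned sign. Without doublet removal Mmp3 in inflammatory stromal-like cells became 0.33 and Mmp8 in neutrophil-like cells -0.0097, and without TMM that Mmp3 value became 0.15. With the stricter cell filter Mmp16 in osteoblast-like cells became 0.24, Timp1 in the stromal aggregate 0.036 and Timp2 in tenocyte-like cells 0.0079. Without integration Mmp16 became 0.19 and Timp1 in inflammatory stromal-like cells -0.38. At resolution 0.4 Mmp16 became 0.13, Timp1 -0.0085 in inflammatory stromal-like cells and 0.0035 in the stromal aggregate, and Timp2 0.074, and at resolution 1.2 Timp2 became 0.091. Without a filter on low counts Mmp14 in the stromal aggregate became 0.0021, Mmp16 in osteoblast-like cells 0.049 and Timp1 in the stromal aggregate 0.013, and without the highest cell Mmp16 became 0.021. Without replicate 3 of both groups Mmp3 became 2.53 in inflammatory stromal-like cells and 3.80 in the stromal aggregate, Mmp8 in neutrophil-like cells -0.37, Mmp14 in the stromal aggregate 0.31, Mmp16 in osteoblast-like cells 0.28 and Timp1 in the stromal aggregate 1.58. With 1 library left out, the changes that turned sign ran from -0.11 to 0.29 for Mmp2 in tenocyte-like cells, -7.54 to 1.95 for Mmp3 in inflammatory stromal-like cells, -7.27 to 3.22 for Mmp3 in the stromal aggregate, and -0.35 to 1.00 for Mmp8 in neutrophil-like cells. They ran from -0.078 to 0.61 and from -0.24 to 0.26 for Mmp14 in the osteoprogenitor-like class and the stromal aggregate, and from -0.52 to 0.26 and from -0.32 to 1.63 for Mmp16 in osteoblast-like cells and the stromal aggregate. They ran from -0.13 to 1.16 and from -0.44 to 1.39 for Timp1 in inflammatory stromal-like cells and the stromal aggregate, and from -0.65 to 0.27 for Timp3 in the stromal aggregate.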
